A study of Apera spica-venti with 32 samples.

Results

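The spray response of population S1 was followed in 8 libraries of leaf RNA from Apera spica-venti (a weedy grass of cereal fields known as silky windgrass), 4 from untreated plants and 4 from plants taken 8 h after a spray of pinoxaden, out of 32 libraries in the series. The members were all libraries whose titles give population S1. S1 is labelled susceptible to herbicides and is 1 population, so the results describe that population. Plants stood in a greenhouse at the stage of 2 to 3 unfolded leaves, each library pooled the leaves of 3 plants, and the sprayed plants received 45 g of active ingredient per ha once, as a commercial formulation. The other populations are S2, also susceptible, and a resistant pair, R1 and R2, that withstands several herbicides, each with 4 untreated and 4 sprayed libraries made in the same way. No mock spray is described and no harvest hour is given for untreated plants, so pinoxaden, the other parts of the formulation, the act of spraying and the time of day cannot be told apart.

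Pinoxaden belongs to the herbicides that block acetyl-CoA carboxylase, the enzyme that makes malonyl-CoA for fatty acid synthesis. Grasses carry a form of this enzyme in their plastids that such herbicides bind, which is why grasses are killed and most broad-leaved crops are not. A plant that survives a herbicide for long enough can attach glutathione or sugar to it and move the product into the vacuole, so the enzymes and carriers of these steps are commonly examined after spraying.

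The measured features are 39590 open reading frames on assembled transcript contigs, of which 25036 passed the filter on low counts, and each is named by the description that the authors deposited and by its contig identifier. Descriptions cover 7697 of the tested features, and the authors gave them only where a feature was listed as changed in some comparison of these same libraries. A count over a gene list is therefore not independent evidence of a direction, and it is read here against all described features. Features have no genome position, and reads of near-identical family members cannot be separated. Each level is in CPM, the count relative to the library total after adjustment by TMM factors. A feature is said to have risen or fallen when the adjusted p of the edgeR quasi-likelihood test was under 0.05.

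Totals ran from 34657599 to 46062806 counts in the untreated and from 29555610 to 38956981 in the sprayed S1 libraries. Leaf markers were abundant, as the label of leaf tissue implies: 44 tested leaf photosynthesis markers summed to 454055 to 528208 CPM in untreated and 312034 to 398233 CPM in sprayed libraries. No description matched the root list. Descriptions cover only features listed as changed, so this could not show whether root RNA was present. Plastid messages filled most of each library, and the 10 most abundant features held 65.99% to 69.54% of untreated and 62.69% to 67.13% of sprayed counts. The TMM factors did not overlap between the groups, at 0.8202 to 0.8923 untreated and 1.057 to 1.26 sprayed. When libraries were scaled by their totals, the median log2 change over all tested features moved from 0.00 to 0.43, and every direction given here is on the TMM scale. In a principal component analysis of the 8 libraries, the first component held 34.6% of the variance and separated the groups. Untreated libraries lay between -73.51 and -66.84, sprayed replicates 1 to 3 between 76.56 and 80.07, and sprayed replicate 4 at 45.69, nearer to the untreated plants.

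Spraying was followed by a change in 5000 of 25036 tested features (20%). Of these, 2736 rose (10.9% of tested) and 2264 fell (9.04%), so 54.7% of the calls were rises; with library totals alone, 6904 rose and 466 fell, and 93.7% of the calls were rises. The rises were larger and lay in scarcer transcripts. The median log2 fold change was 1.27 among features that rose and -0.71 among those that fell, and 241 rose but 21 fell by at least 4 on the log2 scale. The median level over the S1 libraries was 2.92 CPM for features that rose and 10.1 CPM for those that fell, and 10 of the former against 232 of the latter had a mean of at least 100 CPM. All 4 sprayed libraries lay above all 4 untreated ones in 2299 of the features that rose, and below them in 1811 of those that fell. Among all tested features such separation was seen for 11.8% above and 9.78% below. Features named below for the smallest p among all features were picked only where the groups separated, so separation is no added evidence for them. Among described features, 32.6% rose and 25.6% fell, and these are the shares against which the gene lists are read. In bulk leaf RNA, fewer cells of a type and less RNA per cell cannot be told apart.

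**Figure D1:**
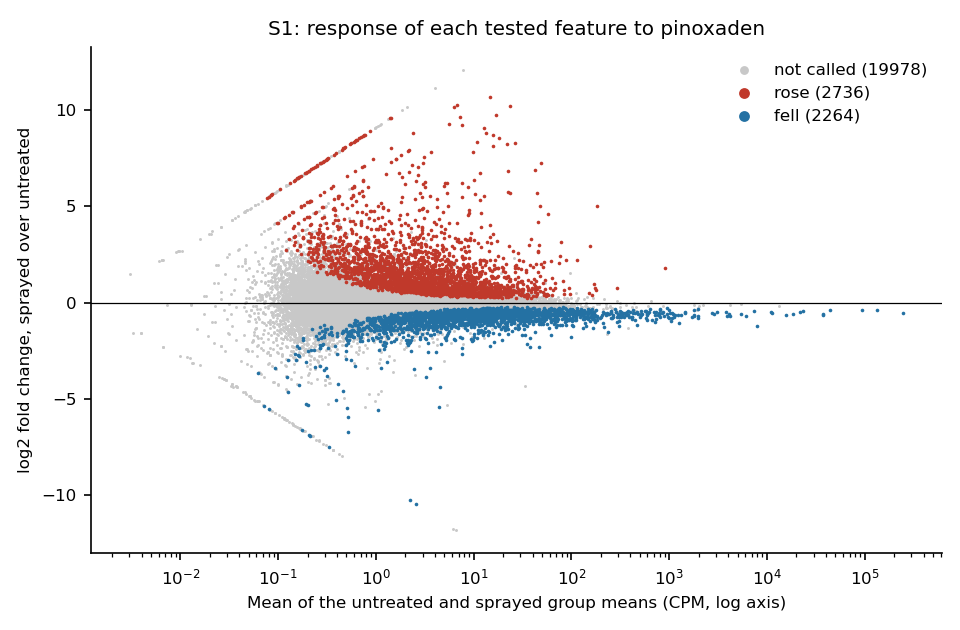
Log2 fold change of sprayed over untreated S1 plants (vertical) against the mean level in CPM (horizontal, log axis) for each tested feature with an S1 count; red features rose, blue fell and grey were not called. The 2736 rises reach high folds at low and middle levels, while the 2264 falls are shallower and run up to the most abundant plastid messages.

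Nearly every described feature of the machinery that finishes ribosomes rose, while members without a description could not be counted. Ribosomes are built in the nucleolus from RNA and protein, and helper proteins escort the large subunit out of the nucleus and release it for use. In yeast, NMD3 carries the large subunit through the nuclear pore, eIF6 sits on it and keeps the small subunit off, and the GTPase EFL1 removes eIF6. Features for all of these helpers rose in S1. The 60S ribosomal export protein NMD3 (TRINITY_DN16782_c0_g1_i1.p1) stood at 4.85, 4.06, 4.26 and 4.14 CPM in the untreated libraries and at 13.8, 12.8, 15.9 and 8.93 CPM in the sprayed ones, a log2 fold change of 1.57 ± 0.13 (adjusted p = 4.72e-09). Elongation factor-like GTPase 1 (TRINITY_DN8742_c0_g1_i3.p1) went from 4.396, 4.86, 5.64 and 4.19 CPM to 92.3, 85.4, 119.9 and 50.99 CPM, a log2 change of 4.19 ± 0.36 (adjusted p = 6.20e-09). In both, every sprayed library was above every untreated one, and sprayed replicate 4 was the lowest of its group. Eukaryotic translation initiation factor 6-2 (TRINITY_DN2098_c0_g1_i46.p2) had 2 counts in the 4 untreated libraries together and 4632 in the sprayed ones, where it read 31.1, 30.2, 43.4 and 13.1 CPM. The ratio was 2075, with a 95% interval of 574 to 17142 that covers counting error only (adjusted p = 4.44e-09).

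The whole ribosome assembly list, a list added after the values had been seen, held 45 tested members on 41 contigs. Of the 45, 42 rose, by at least 0.55 on the log2 scale, and 1 fell. The exception was Nucleolysin TIAR (TRINITY_DN22910_c0_g2_i10.p1), an RNA-binding protein, with -0.36 ± 0.10 (adjusted p = 0.0082), whose sign turned with library totals alone. The median of the list was 1.57, against 0.22 over all described features. Of 30 features of RNA helicases, which unwind RNA during ribosome assembly, splicing and translation, 25 rose and 1 fell. The 30 lay on 24 contigs, and the helicase list shares no feature with the assembly list. DEAD-box ATP-dependent RNA helicase 7 (TRINITY_DN1575_c0_g1_i31.p2) was at 5.69, 6.301, 8.79 and 5.41 CPM before and 28.5, 23.6, 30.8 and 19.3 CPM after spraying, 1.97 ± 0.24 on the log2 scale (adjusted p = 1.20e-06). Helicase 16 (TRINITY_DN7783_c0_g1_i2.p1) rose from 0.363 ± 0.126 to 5.505 ± 1.46 CPM (mean ± SD, n = 4), the largest rise in that list. The member that fell, helicase 25-like (TRINITY_DN1672_c0_g1_i28.p1), had a log2 change of -0.43 ± 0.11 (adjusted p = 0.00437), which turned to 0.01 with library totals alone. With splicing factors included, 36 of 50 rose and 3 fell.

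Factors of protein synthesis rose as well. Of 66 translation factors and tRNA ligases, the enzymes that load amino acids onto transfer RNA, 49 rose and 9 fell. Elongation factor 1 (TRINITY_DN2724_c0_g1_i4.p1), of the factor that brings loaded transfer RNA to the ribosome, read 334, 372, 519 and 390.1 CPM in untreated and 1442, 1531, 1706 and 954 CPM in sprayed libraries. This was a 3.49-fold rise (log2 1.80 ± 0.22; adjusted p = 1.37e-06). Elongation factor 2 (TRINITY_DN1168_c0_g2_i4.p1), which moves the ribosome along the message, rose 1.72-fold from 218 ± 30.6 to 373 ± 44.4 CPM (adjusted p = 0.000523). All 8 tested features of initiation factor 3 subunits, on 7 contigs, rose by a narrow 0.59 to 1.03 on the log2 scale. Initiation factor 3 is the scaffold that gathers the small subunit and the message. Of 26 tRNA ligase features, on 22 contigs, 18 rose and 5 fell (3 without untreated replicate 4 or sprayed replicate 2, 2 without sprayed replicate 3). Tyrosine--tRNA ligase 1, cytoplasmic (TRINITY_DN236_c1_g1_i11.p1), rose by 1.75 ± 0.17 (adjusted p = 3.21e-08), and an arginine--tRNA ligase named for plastid and mitochondrion (TRINITY_DN526_c0_g1_i12.p1) climbed from 25.4, 30.1, 33.9 and 34.7 CPM to 162, 142, 199.7 and 76.3 CPM. The alanine--tRNA ligase of the same organelles (TRINITY_DN2016_c0_g1_i5.p1) had a log2 change of -0.53 ± 0.10 (adjusted p = 0.000178), which was -0.10 and not called with library totals alone. ABC transporter E family member 2 (TRINITY_DN5032_c0_g1_i13.p1), a relative of transporters that in yeast and animals splits spent ribosomes and carries nothing across membranes, rose from 0.3203 ± 0.207 to 14.7 ± 5.92 CPM, by 5.47 ± 0.56 on the log2 scale (adjusted p = 9.43e-08).

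Of 85 ribosomal proteins 21 rose (24.7%) and 27 fell (31.8%), near the shares of described features, or 46 and 3 with library totals alone. They were divided by compartment after the values had been seen, and the difference between the compartments was not tested. Of 44 proteins of the cytosolic 40S and 60S subunits, 15 rose (34.1%, near the share of described features) and none fell, at a median of 0.64; their summed level was 440.1 to 799 CPM in untreated and 821 to 918 CPM in sprayed libraries. The number that rose was 24 without untreated replicate 3 and 9 without untreated replicate 2 or 4. Of 22 proteins of the plastid 30S and 50S subunits, 16 fell and 3 rose, at a median of -0.54; with library totals alone 2 fell and 4 rose, although the median stayed at -0.11. The 30S ribosomal protein S31 of the plastid (TRINITY_DN5784_c0_g2_i1.p2) dropped from 45.1, 42.7, 43.02 and 51.03 CPM to 29.2, 26.8, 23.7 and 26.4 CPM, -0.78 ± 0.10 on the log2 scale (adjusted p = 1.02e-06). The groups did not overlap. The plastid elongation factor Tu (TRINITY_DN18213_c0_g2_i1.p1), the counterpart of elongation factor 1 inside the plastid, fell from 532 ± 19.7 to 298 ± 29.1 CPM, by 0.84 ± 0.08 on the log2 scale (adjusted p = 3.30e-08). The 60S acidic ribosomal protein P2A-like (TRINITY_DN383_c0_g1_i4.p2) stood apart from the other cytosolic proteins. It had 5 counts in all in the untreated libraries, all in replicate 2, and read 34.2, 29.1, 59.6 and 13.2 CPM in the sprayed ones. Pentatricopeptide repeat proteins, which edit and process organelle RNA, went both ways. On the TMM scale 22 of 63 rose (34.9%, near the share of described features) and 21 fell (33.3%). With library totals alone 34 rose and 4 fell. The number that rose was 13 without untreated replicate 1 and 12 without untreated replicate 4.

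Chaperones rose next to the translation genes. Chaperones fold new or damaged proteins, and heat stress transcription factors switch their genes on. Of 66 heat shock proteins and chaperones, 39 rose and 10 fell, at a median of 0.83, and all 9 tested heat stress transcription factor features, on 7 contigs, rose by 1.5 to 6.57. A dnaJ protein homolog (TRINITY_DN2682_c0_g1_i4.p1), of the helpers that hand clients to HSP70, read 10.3, 10.8, 8.36 and 13.2 CPM untreated and 75.7, 72.3, 75.2 and 111 CPM sprayed, 2.97 ± 0.25 on the log2 scale (adjusted p = 4.44e-09). An HSP90 chaperone (TRINITY_DN846_c0_g1_i7.p1) read 34.5, 37.8, 37.3 and 32.6 CPM untreated and 295, 276, 200.3 and 319 CPM sprayed, a 7.66-fold rise (log2 2.94 ± 0.35; adjusted p = 7.75e-07). In both, sprayed replicate 4 was the highest library, unlike in the ribosome helpers. The heat stress transcription factor A-3 (TRINITY_DN12357_c0_g1_i2.p1), which in Arabidopsis responds to drought and heat, went from 0.0772 ± 0.0304 to 6.24 ± 3.23 CPM, by 6.25 ± 0.74 on the log2 scale (adjusted p = 6.93e-07). A mitochondrial small heat shock protein (TRINITY_DN1241_c0_g1_i1.p1) went from 0.185, 0.03198, 0.101 and 0 CPM to 6.88, 6.82, 5.23 and 5.04 CPM.

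Chaperones of the plastid did not all follow. Chaperone protein dnaJ 11, chloroplastic-like (TRINITY_DN244_c0_g1_i13.p4), was at 22.2, 29.4, 18.5 and 40.6 CPM and then at 7.11, 8.36, 10.99 and 8.87 CPM, -1.65 ± 0.33 on the log2 scale (adjusted p = 0.000598). ClpD1 (TRINITY_DN1329_c0_g2_i9.p4), a plastid chaperone that unfolds proteins and whose Arabidopsis relative is induced by drying, rose from 0.314 ± 0.103 to 5.102 ± 1.81 CPM, by 3.99 ± 0.36 (adjusted p = 9.06e-09). Protein disposal changed less uniformly. Of 127 ubiquitin, E3 ligase and F-box features, 36 rose (28.3%) and 32 fell (25.2%), or 21 without sprayed replicate 2; with library totals alone 63 rose and 9 fell. Of 9 proteasome features, on 8 contigs, 4 rose, by at most 0.50. The number that rose was 1 without untreated replicate 1 or 4 or sprayed replicate 1. It was 2 without untreated replicate 3 or sprayed replicate 2 or 4. Ubiquitin-conjugating enzyme 28 (TRINITY_DN1202_c0_g3_i1.p1), which passes ubiquitin to target proteins, read 13.8, 11.5, 12.9 and 14.5 CPM untreated and 37.9, 44.8, 40.7 and 33.98 CPM sprayed, 1.58 ± 0.13 on the log2 scale (adjusted p = 3.95e-09). The probable F-box protein At5g04010 (TRINITY_DN139345_c0_g1_i1.p1), of the subunits that pick targets for ubiquitin ligases, went the other way, from 147 counts over the untreated libraries to 1 over the sprayed ones, a 164-fold ratio (95% interval from counting, 29.0 to 6523). Of 12 autophagy and vesicle traffic features, 4 rose (33.3%, near the share of described features) and 2 fell (16.7%). Without untreated replicate 4 the rises were 2, and 1 fell without untreated replicate 1, 3 or 4 or sprayed replicate 2.

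**Figure D2:**
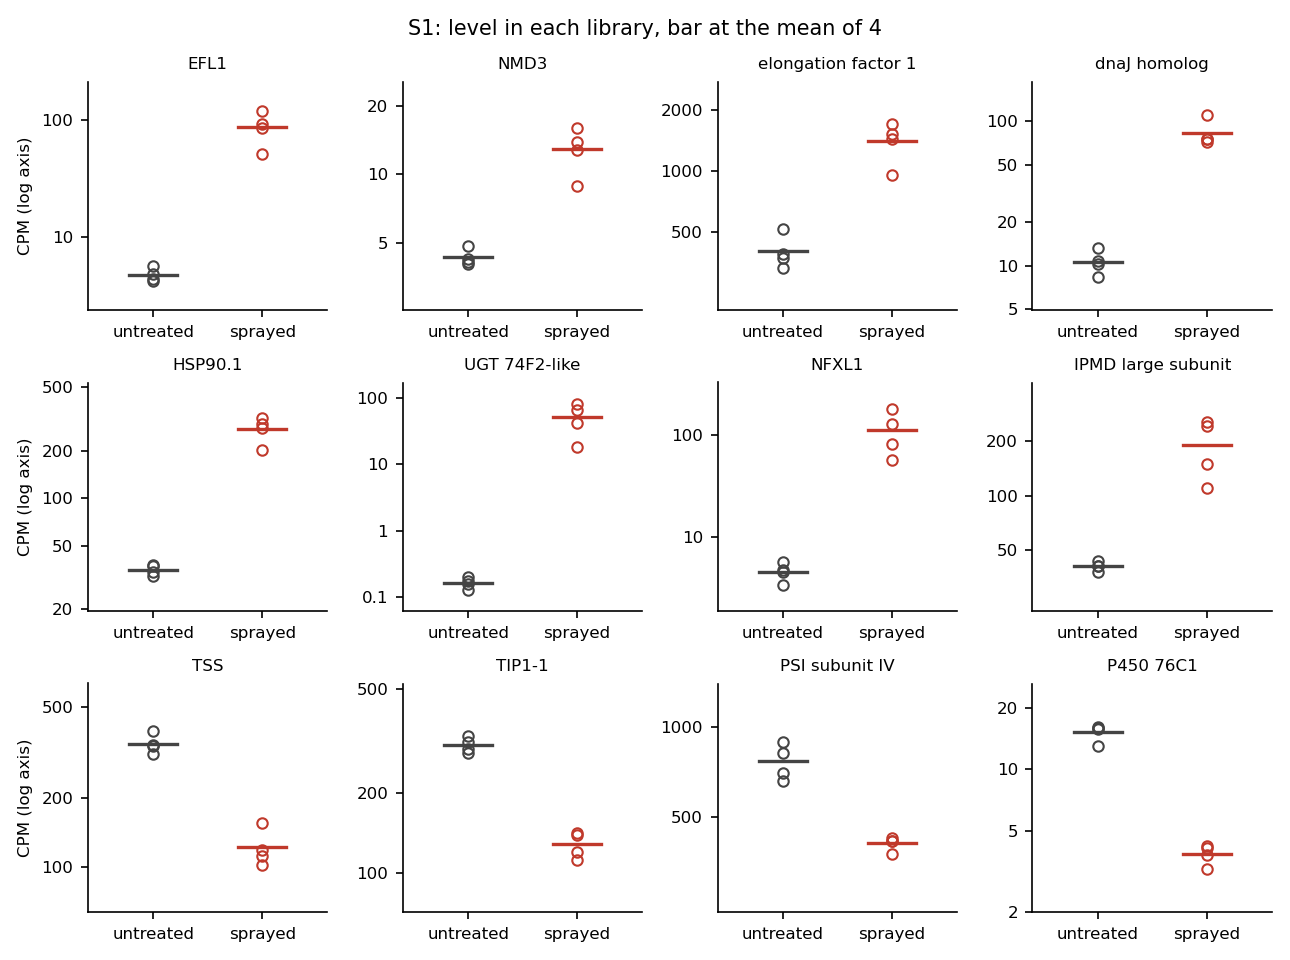
Level in CPM (vertical, log axis) of 12 named features in each of the 4 untreated (grey) and 4 sprayed (red) S1 libraries, with a bar at each group mean. In all 12 the sprayed libraries lie wholly above or wholly below the untreated ones, from NMD3 at 8.93 to 15.9 CPM sprayed to P450 76C1 at 3.23 to 4.18 CPM sprayed. Such separation was a condition for naming features by the smallest p among all features, so it is no added evidence for those.

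More of the enzymes that attach sugar or glutathione to small molecules rose than fell. Cytochrome P450 enzymes, which often oxidise such molecules first, went both ways, at shares near those of described features. Of 38 glycosyltransferases 20 rose and 3 fell, at a median of 2.00. UDP-glycosyltransferase 74F2-like (TRINITY_DN17_c0_g3_i1.p1), whose Arabidopsis namesake glucosylates salicylic acid, was near the limit of detection in untreated plants at 0.159, 0.128, 0.201 and 0.175 CPM and read 66.5, 42.5, 82.1 and 18.2 CPM after spraying. Its log2 change was 8.27 ± 0.70 (adjusted p = 8.31e-09). UDP-glycosyltransferase 74E1-like (TRINITY_DN5501_c0_g1_i2.p1) rose from 0.106, 0.03198, 0 and 0.0748 CPM to 39.3, 29.9, 28.7 and 9.28 CPM (adjusted p = 8.31e-09). In both the sprayed group spanned a wide range, with replicate 4 the lowest, yet far above every untreated library. Crocetin glucosyltransferase, chloroplastic-like (TRINITY_DN1551_c0_g1_i1.p1), named for an enzyme of saffron pigment synthesis, was among the few that fell, with -1.05 ± 0.28 (adjusted p = 0.00628), a call lost with library totals alone (adjusted p = 0.0691).

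Of 16 glutathione S-transferases 9 rose, by at least 2.03 on the log2 scale, and 1 fell. The probable glutathione S-transferase parC (TRINITY_DN5305_c0_g1_i4.p1) went from 0.132, 0, 0.201 and 0.125 CPM to 5.55, 4.997, 7.001 and 1.999 CPM, 5.37 ± 0.86 on the log2 scale (adjusted p = 5.22e-05), while glutathione S-transferase F11 (TRINITY_DN13935_c0_g1_i3.p1) fell from 21.5 ± 3.55 to 14.9 ± 1.73 CPM (adjusted p = 0.00305), a call lost with library totals alone (log2 -0.09). Among carriers that move conjugates or other solutes, of 39 ABC transporter features, among them the ribosome-splitting E family member above, 21 rose and 5 fell (2 fell without sprayed replicate 2), and of 13 MATE carriers, which export small molecules in exchange for protons, 5 rose (38.5%) and 3 fell (23.1%, or 1 feature without untreated replicate 3), shares near those of described features, at a median of -0.20, which turned to 0.24 with library totals alone. Protein DETOXIFICATION 16-like (TRINITY_DN5054_c0_g1_i35.p1), a MATE carrier, had 1 untreated count and 758 sprayed counts, a 679-fold ratio (95% interval from counting, 122 to 26863), and read 6.83, 6.12, 5.93 and 0.356 CPM in the sprayed libraries. Replicate 4 lay far below the other sprayed libraries, and limma voom did not call the feature (adjusted p = 0.272).

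Of 43 cytochrome P450 features 11 rose (25.6%, or 7 features without untreated replicate 3) and 13 fell (30.2%), near the shares of described features, at a median of 0.52. With library totals alone the balance turned to 16 rises and 3 falls. Cytochrome P450 709B1-like (TRINITY_DN16815_c1_g1_i18.p1) rose from 0.185, 0.06397, 0.101 and 0.225 CPM to 8.17, 7.63, 8.87 and 3.37 CPM, 5.53 ± 0.59 on the log2 scale (adjusted p = 1.54e-07). Cytochrome P450 76C1 (TRINITY_DN3630_c0_g1_i3.p1), whose Arabidopsis namesake oxidises the scent alcohol linalool, fell from 16.2, 15.9, 13.1 and 15.8 CPM to 4.11, 3.23, 4.18 and 3.81 CPM, -1.99 ± 0.21 on the log2 scale (adjusted p = 8.25e-08). Neither overlapped between groups. Of 33 phenylpropanoid features, which lead to lignin and flavonoids, 12 rose (36.4%, near the share of described features) and 5 fell (15.2%). The number that fell was 3 without untreated replicate 4 or sprayed replicate 1 or 3. Putative cinnamyl alcohol dehydrogenase 5 (TRINITY_DN1435_c0_g1_i15.p1), which makes lignin alcohols, rose 6.33-fold (adjusted p = 3.98e-05), and dirigent protein 22-like (TRINITY_DN140490_c0_g1_i1.p1), of the proteins that guide lignan coupling, fell on uneven untreated values of 4.502, 0.06397, 0.436 and 3.14 CPM (adjusted p = 0.0366). The groups overlap in the latter, and its call was lost without untreated replicate 1 or 4 or sprayed replicate 1, 3 or 4 (adjusted p = 0.134, 0.0818, 0.0982, 0.101 and 0.0795). It was also lost with library totals alone, limma voom, no filter on low counts and the S1 libraries alone (adjusted p = 0.0548, 0.47, 0.0551 and 0.124).

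Transcription factors were counted by family. Of the WRKY factors, which act in defence, 10 of 19 rose and 1 fell; of the NAC factors, which act in drought and ageing, 12 of 19 rose and 1 fell; of the AP2/ERF factors 6 of 7 rose and 1 fell. Of 49 bZIP, bHLH and zinc finger features 27 rose and 7 fell (4 without untreated replicate 1, 3 without sprayed replicate 2), and of 14 MYB features 5 rose (35.7%) and 3 fell (21.4%), near the shares of described features. NFXL1 (TRINITY_DN1664_c0_g1_i8.p1), an NF-X1-type zinc finger protein that in Arabidopsis acts in salt stress and defence, was at 4.77, 4.54, 5.71 and 3.44 CPM untreated and at 81.6, 126, 177 and 56.3 CPM sprayed, 4.58 ± 0.36 on the log2 scale (adjusted p = 3.95e-09). A WRKY protein (TRINITY_DN72249_c0_g1_i1.p1) rose from 3.83 ± 1.28 to 24.7 ± 7.83 CPM (adjusted p = 2.45e-07). A NAC domain-containing protein 68-like (TRINITY_DN8795_c0_g1_i1.p1) rose from 0.713 ± 0.193 to 16.9 ± 5.38 CPM (adjusted p = 1.51e-06). The PTI6-like activator of pathogenesis-related genes (TRINITY_DN108435_c0_g1_i14.p1), of a family first described in tomato, rose from 0.424, 0.864, 0.638 and 0.574 CPM to 18.9, 18.3, 22.3 and 9.61 CPM, 4.79 ± 0.41 on the log2 scale (adjusted p = 4.72e-09). Among regulators that fell were a MYB-related protein (TRINITY_DN492_c0_g1_i30.p2), from 31.9, 30.1, 27.2 and 24.1 CPM to 11.3, 9.66, 11.6 and 14.2 CPM (adjusted p = 8.73e-08), and transcription factor BHLH062 (TRINITY_DN11797_c0_g1_i2.p1), with -1.66 ± 0.37.

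Hormone features were few, and differences between hormones were not tested. For abscisic acid, the hormone of water stress, 8 of 21 features rose (38.1%, or 5 features without untreated replicate 4) and 4 fell (19%), near the shares of described features. The dioxygenase NCED5 (TRINITY_DN31190_c1_g1_i19.p2), of the enzymes that limit abscisic acid synthesis, had 1 untreated and 187 sprayed counts, a 168-fold ratio (95% interval from counting, 29.7 to 6653). ABA 8'-hydroxylase (TRINITY_DN8865_c0_g1_i6.p1), which breaks the hormone down, rose from 1.403, 1.599, 0.873 and 1.097 CPM to 2.902, 9.63, 6.54 and 7.97 CPM, 2.44 ± 0.37 on the log2 scale (adjusted p = 2.19e-05). Of 10 jasmonate and lipoxygenase features 5 rose and 1 fell, and 3 rose without untreated replicate 2 or 3 or sprayed replicate 1, 2 or 3; Protein TIFY 11b (TRINITY_DN1298_c0_g1_i8.p2), of the repressors that jasmonate removes, rose by 1.69 ± 0.27 (adjusted p = 4.11e-05). Auxin features, for the hormone of growth, went down on the TMM scale, 8 of 15 against 2 that rose, but with library totals alone 2 fell and 5 rose. The number that fell was 5 without untreated replicate 4 and 3 without sprayed replicate 3. The auxin-induced protein 15A-like (TRINITY_DN13607_c0_g1_i1.p3) went from 0.9798, 1.05, 1.85 and 2.64 CPM to 0.359, 0.677, 0.535 and 0.5203 CPM, -1.64 ± 0.44 on the log2 scale (adjusted p = 0.00777). Of 49 features of calcium and MAP kinase signalling 23 rose and 10 fell (6 without sprayed replicate 2), with putative calcium-binding protein CML22 (TRINITY_DN513_c0_g1_i2.p1) rising from 1.46 ± 0.483 to 12.7 ± 3.97 CPM (adjusted p = 3.90e-07).

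Of 87 receptor-like kinases, which sense signals outside the cell, 23 rose (26.4%) and 10 fell (11.5%), and of 36 NLR proteins, which sense pathogens inside it, 8 rose (22.2%) and 5 fell (13.9%). Without untreated replicate 1 or 2 or sprayed replicate 1, 5 NLR features rose and 3 fell; 3 also fell without sprayed replicate 2. Without untreated replicate 4 or sprayed replicate 1, 14 of the kinases rose. The medians of both lists were negative, at -0.22 and -0.20, and turned positive with library totals alone, at 0.21 and 0.25. Pathogenesis-related proteins had 10 of 22 up and 4 down. Glucan endo-1,3-beta-glucosidase 14 (TRINITY_DN10141_c0_g1_i14.p1), which cuts glucans such as callose, fell from 19.6, 20.4, 15.6 and 19.2 CPM to 8.14, 6.299, 7.803 and 7.91 CPM, -1.31 ± 0.16 on the log2 scale (adjusted p = 7.75e-07).

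Photosynthesis went down across its parts. Of 52 tested photosynthesis features, on 45 contigs, 44 fell and none rose, at a median of -0.64. All 17 features of chlorophyll a/b-binding proteins, the antennae that catch light, fell by 0.51 to 2.04 on the log2 scale. These 17 lay on 16 contigs. With library totals alone 12 of the 52 fell and 1 rose, and 9 of the 17 fell and none rose, so the direction of both medians stayed while the counts shrank. Photosystem I reaction center subunit IV (TRINITY_DN3565_c0_g1_i1.p2) was at 819.8, 705, 661 and 895 CPM in untreated and 416, 377, 428 and 415 CPM in sprayed libraries, -0.91 ± 0.14 on the log2 scale (adjusted p = 3.08e-05). A chlorophyll a-b binding protein of LHCII type 1 (TRINITY_DN697_c0_g2_i8.p1) was at 478, 314, 346 and 437 CPM and at 219, 168, 203 and 192 CPM, -1.01 ± 0.18 on the log2 scale (adjusted p = 0.000122). Neither overlapped between the groups. Rubisco activase (TRINITY_DN843_c0_g1_i20.p1), which keeps the carbon-fixing enzyme working, fell from 2508 ± 229 to 1447 ± 139.9 CPM (adjusted p = 1.02e-05).

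Messages encoded in the plastid moved less as shares of the library than on the TMM scale. The rubisco large subunit (TRINITY_DN2228_c0_g1_i4.p2), which fixes carbon dioxide, had a log2 change of -0.53 ± 0.10 (adjusted p = 0.000311), while its share of counts was 25.25% in untreated and 23.43% in sprayed libraries, and with library totals alone it was not called (adjusted p = 0.0628). The photosystem I apoprotein A1 (TRINITY_DN939_c0_g4_i1.p1) had -0.65 ± 0.12 (adjusted p = 0.000173) and shares of 3.92% and 3.35%. The photosystem II protein D1 (TRINITY_DN17730_c0_g1_i13.p2) had -0.36 ± 0.10 (adjusted p = 0.0126) and shares of 13% and 13.65%, and its call was lost without sprayed replicate 2 (adjusted p = 0.0557). For D1 the sign thus turned with library totals, to 0.07, and for the photosystem II protein CP43 (TRINITY_DN99_c0_g3_i1.p1), at -0.40 on the TMM scale, it turned to 0.03.

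Of 391 features whose description names the chloroplast, 236 fell and 39 rose, at a median of -0.48; with library totals alone 41 fell and 81 rose. Ribonuclease E/G-like protein, chloroplastic (TRINITY_DN366_c0_g1_i73.p2), which trims plastid RNA, was at 17.1, 15.1, 16.7 and 17.6 CPM and at 6.04, 7.47, 7.44 and 8.27 CPM, -1.19 ± 0.12 on the log2 scale (adjusted p = 2.89e-08). Curvature thylakoid 1B (TRINITY_DN37280_c0_g1_i10.p2), which bends the thylakoid membranes, had -1.30 ± 0.15 (adjusted p = 5.13e-07). PAA2 (TRINITY_DN2007_c0_g1_i5.p1), which pumps copper towards plastocyanin, had -1.17 ± 0.14 (adjusted p = 3.80e-07). The lumenal subunit 2 of the photosynthetic NDH complex (TRINITY_DN1619_c0_g2_i1.p1), which takes part in cyclic electron flow, fell by 1.12 ± 0.15 (adjusted p = 2.77e-06). Of 15 pigment synthesis features 9 fell and none rose, or 3 and 2 with library totals alone. Among the 9 was protochlorophyllide reductase B (TRINITY_DN142_c0_g2_i1.p1), the light-driven step to chlorophyll, which fell from 194, 208, 164 and 184 CPM to 86.1, 77.3, 79.05 and 116 CPM (adjusted p = 1.42e-05). Protein STAY-GREEN LIKE (TRINITY_DN11089_c0_g1_i6.p1), a relative of the enzyme that opens chlorophyll breakdown, fell by 1.17 ± 0.15 (adjusted p = 2.03e-06).

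**Figure D3:**
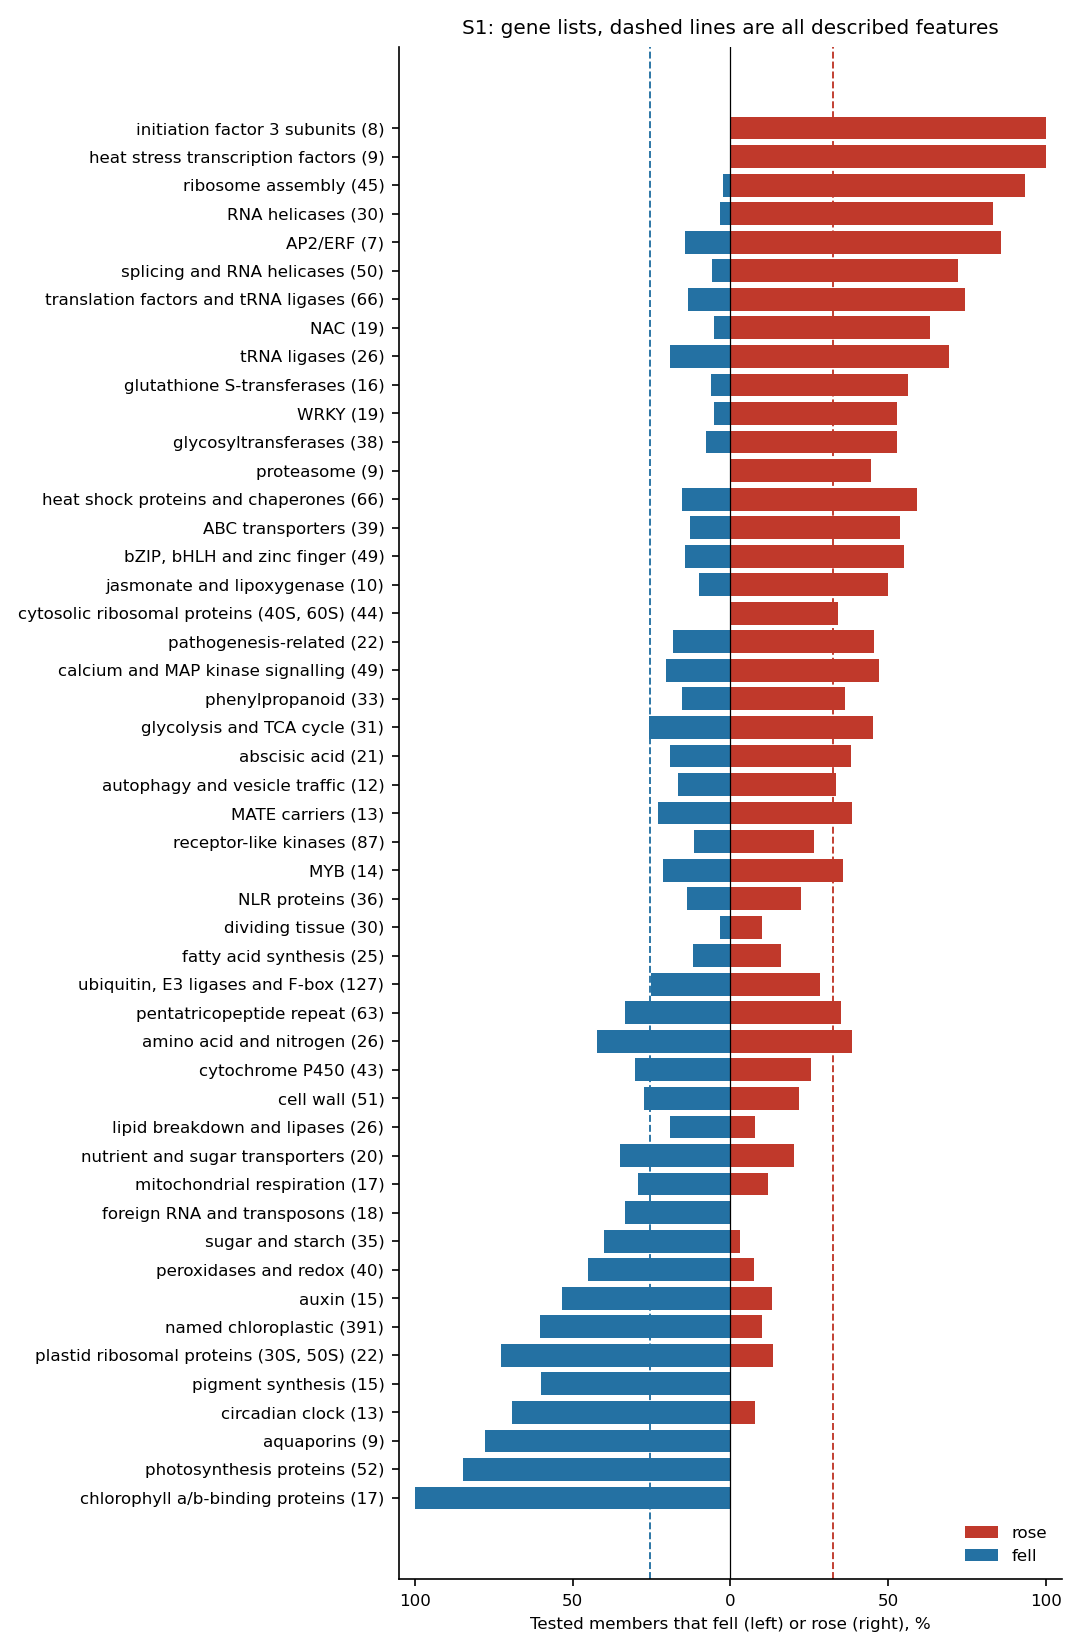
Share of the tested members of each plotted gene list (all with at least 5 tested members) that fell (blue, to the left) or rose (red, to the right) in S1, with the number of tested members in brackets; dashed lines mark all described features (32.6% rose, 25.6% fell). Heat stress factors, initiation factor 3 and ribosome assembly stand at the top, and aquaporins, photosynthesis proteins and chlorophyll a/b-binding proteins at the bottom.

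Of 35 sugar and starch features 14 fell and 1 rose, but with library totals alone 3 fell and 11 rose. Fructose-1,6-bisphosphate aldolase 5 (TRINITY_DN4907_c0_g1_i11.p1) fell by 0.64 ± 0.10, from 1592 ± 127 to 1024 ± 113 CPM (adjusted p = 4.25e-05). Of 31 features of glycolysis and the TCA cycle, the routes that burn sugar, 14 rose by at most 0.82 and 8 fell. Pyruvate kinase, cytosolic isozyme (TRINITY_DN930_c0_g1_i10.p1), rose from 11.9 ± 0.879 to 21.0 ± 2.52 CPM (adjusted p = 0.000198). Of 17 features of mitochondrial respiration 2 rose and 5 fell, a balance that turned to 7 and 1 with library totals alone; 1 rose without untreated replicate 2, 3 or 4. The external NADH-ubiquinone oxidoreductase 1 (TRINITY_DN8472_c0_g3_i2.p1), a bypass of the respiratory chain that pumps no protons, rose from 0.212, 0.288, 0.201 and 0.0998 CPM to 14.4, 16.1, 7.63 and 3.42 CPM, 5.69 ± 0.65 on the log2 scale (adjusted p = 3.95e-07). Of 40 peroxidase and redox features 18 fell and 3 rose, but 3 fell and 9 rose with library totals alone, and 1 rose without untreated replicate 1 or 4 or sprayed replicate 2.

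Amino acid and nitrogen features went both ways, with 10 of 26 up (38.5%) and 11 down (42.3%), at a median of -0.49. With library totals alone 11 rose and 1 fell. A feature described as putative delta-1-pyrroline-5-carboxylate 2 (TRINITY_DN4232_c0_g1_i24.p2), on a contig whose other frames are described as the synthetase that opens proline synthesis, rose from 9.003, 7.196, 9.799 and 6.61 CPM to 43.7, 54.8, 64.6 and 29.96 CPM, 2.57 ± 0.22 on the log2 scale (adjusted p = 4.44e-09). The 3-isopropylmalate dehydratase large subunit (TRINITY_DN311_c0_g1_i24.p1), of the leucine pathway, rose from 42.98, 37.5, 40.6 and 40.6 CPM to 149, 243, 258 and 110.1 CPM, 2.23 ± 0.20 on the log2 scale (adjusted p = 9.82e-09). The branched-chain-amino-acid aminotransferase-like protein 3 (TRINITY_DN2401_c0_g1_i2.p1) fell by 1.13 ± 0.18 (adjusted p = 4.14e-05).

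Features named for the enzyme that the herbicide blocks and for fatty acid synthesis showed few calls, and neither feature of that enzyme is described as the plastid form. Both features described as acetyl-CoA carboxylase missed the threshold. Cytosolic acetyl-CoA carboxylase 2 (TRINITY_DN1720_c0_g1_i7.p1) read 239, 255, 278 and 248 CPM untreated and 184, 209.5, 236 and 221 CPM sprayed, a log2 change of -0.26 ± 0.13 (adjusted p = 0.163). The feature described as acetyl-coenzyme A carboxylase (TRINITY_DN1720_c0_g2_i1.p1) read 215, 259.8, 275 and 232 CPM and 204, 211, 173 and 237 CPM, a log2 change of -0.25 ± 0.13 (adjusted p = 0.176). The first did not overlap between groups and the second did, and both signs turned with library totals alone. The second description names no compartment, and their contig identifiers share a cluster number, so reads may be shared between them. Of 25 fatty acid synthesis features 4 rose (16%) and 3 fell (12.0%), with 2 rises without untreated replicate 1 or 2, 1 without sprayed replicate 3, and 5 falls without untreated replicate 2 or sprayed replicate 1, at a median of -0.21, which turned to 0.22 with library totals alone. The 3-ketoacyl-CoA synthase 11 (TRINITY_DN867_c1_g1_i1.p1), which lengthens fatty acids for wax, rose by 1.28 ± 0.32 (adjusted p = 0.0046) although the groups overlapped and the call was lost with the S1 libraries alone (adjusted p = 0.0578), and fatty acid desaturase DES3-like (TRINITY_DN5186_c0_g1_i12.p8) fell by 1.12 ± 0.23 (adjusted p = 0.000651). Of 26 lipase and lipid breakdown features 2 rose and 5 fell, or 7 and 1 with library totals alone, and 8 fell without untreated replicate 1. Phosphatidylinositol:ceramide inositolphosphotransferase (TRINITY_DN743_c0_g1_i5.p1), which makes the head group of plant sphingolipids, rose from 1.88, 2.303, 1.75 and 2.12 CPM to 19.1, 17.7, 15.97 and 9.09 CPM, 2.94 ± 0.26 on the log2 scale (adjusted p = 4.72e-09).

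Most water channels and clock features fell, while wall enzymes went both ways. Of 9 aquaporins 7 fell by 0.65 to 1.26 and none rose, and their summed level was 656 to 693 CPM untreated and 302 to 366 CPM sprayed. In the vacuole membrane, the water channel tonoplast intrinsic protein 1-1 (TRINITY_DN1064_c1_g1_i1.p1) was at 313, 294, 286 and 330.5 CPM and at 139, 112, 120.0 and 142 CPM, -1.26 ± 0.15 on the log2 scale (adjusted p = 6.62e-07). With library totals alone 4 aquaporins still fell. Of 51 cell wall features 14 fell (27.5%) and 11 rose (21.6%), against 25.6% and 32.6% of described features. With library totals alone 4 fell and 18 rose. On the TMM scale 7 fell without untreated replicate 3 and 6 without sprayed replicate 3. Polygalacturonase (TRINITY_DN7008_c0_g1_i11.p1), which cuts pectin, was at 13.7, 16.5, 15.4 and 12.9 CPM and at 2.34, 3.41, 4.52 and 5.696 CPM, -1.87 ± 0.18 on the log2 scale (adjusted p = 2.77e-08). Expansin-B11 (TRINITY_DN4162_c0_g1_i17.p3), which loosens walls, had -1.92 ± 0.31, while a probable xyloglucan endotransglucosylase/hydrolase (TRINITY_DN7234_c0_g1_i2.p1), which recuts wall polymers, rose by 1.56 ± 0.24 (adjusted p = 3.81e-05 and 2.42e-05). Of 20 nutrient and sugar transporters 4 rose and 7 fell, or 6 and 2 with library totals alone, and 2 rose without untreated replicate 3 or sprayed replicate 1 or 3.

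Of 13 circadian clock features 9 fell and 1 rose; with library totals alone 2 fell and 2 rose. The clock component PRR95 (TRINITY_DN1306_c0_g1_i3.p1) read 50.0, 45.2, 39.6 and 41.95 CPM untreated and 42.7, 12.6, 13.2 and 16.1 CPM sprayed (adjusted p = 0.0021), so sprayed replicate 1 lay inside the untreated range and the other sprayed libraries far below it. With the S1 libraries alone its call was lost (adjusted p = 0.104). Without replicate 1 its log2 change moved from -1.06 to -1.69. Zinc finger protein CONSTANS-LIKE 13 (TRINITY_DN19892_c0_g1_i19.p4), of a family tied to day length, rose by 1.30 ± 0.17 (adjusted p = 1.76e-06). Because no harvest hour is given, these values and a difference in time of day cannot be told apart. Protein TSS (TRINITY_DN421_c0_g1_i16.p1) fell from 338, 312, 395 and 342 CPM to 102, 112, 118 and 156 CPM, -1.51 ± 0.13 on the log2 scale (adjusted p = 4.44e-09). A second feature, protein TSS-like (TRINITY_DN237_c0_g1_i48.p2), fell by 1.01 ± 0.12 (adjusted p = 6.10e-07).

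Within S1, some transcripts had counts only after spraying. Of the features called, 53 had no count in any untreated S1 library and 8 had none in any sprayed one. Among all tested features these numbers were 189 and 146. Taking 3 counts over the untreated group as the limit that a count of 0 allows, a putative prolyl-tRNA synthetase (TRINITY_DN90803_c0_g1_i9.p1) was at least 132-fold higher and an IQ domain-containing protein IQM1-like (TRINITY_DN13721_c0_g1_i9.p1), of calmodulin-binding proteins, at least 131-fold higher. E3 ubiquitin-protein ligase EL5-like (TRINITY_DN16178_c0_g2_i1.p1) was at least 70.8-fold higher and a phenylalanine ammonia-lyase (TRINITY_DN30992_c0_g3_i1.p1), the entry to phenylpropanoids, at least 57.6-fold. Zinc finger protein 36-like (TRINITY_DN33936_c1_g1_i1.p1) was at least 55.3-fold and glutathione S-transferase GSTU6 (TRINITY_DN2663_c0_g3_i1.p1) at least 43.9-fold higher. All 6 had counts in each of the 4 sprayed libraries, and all 6 were lowest in replicate 4. Untreated libraries of other populations did hold GSTU6, at 0.179 to 2.17 CPM in R1 and 0.025 to 0.116 CPM in R2. Interferon-related developmental regulator 1 (TRINITY_DN1130_c0_g1_i8.p1) had 2 untreated and 2267 sprayed counts, a 1016-fold ratio (95% interval from counting, 281 to 8392).

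Among features called as rises, sprayed replicate 4 rose less than the other sprayed libraries. The features were called with replicate 4 included, so a shared direction was fixed by their choice. Over the features that rose with a mean of at least 1 CPM, the median log2 level of replicate 4 over the untreated mean was 0.78. In the other sprayed libraries it was 0.99 to 1.01. Over those that fell replicate 4 was at -0.63, close to the others at -0.75 to -0.65. Glycosyltransferases summed to 188 CPM in replicate 4 and to at least 320.5 CPM in the other sprayed libraries, while heat shock proteins and chaperones were highest in replicate 4, at 1521 CPM. Without this library 4833 features were called.

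**Figure D4:**
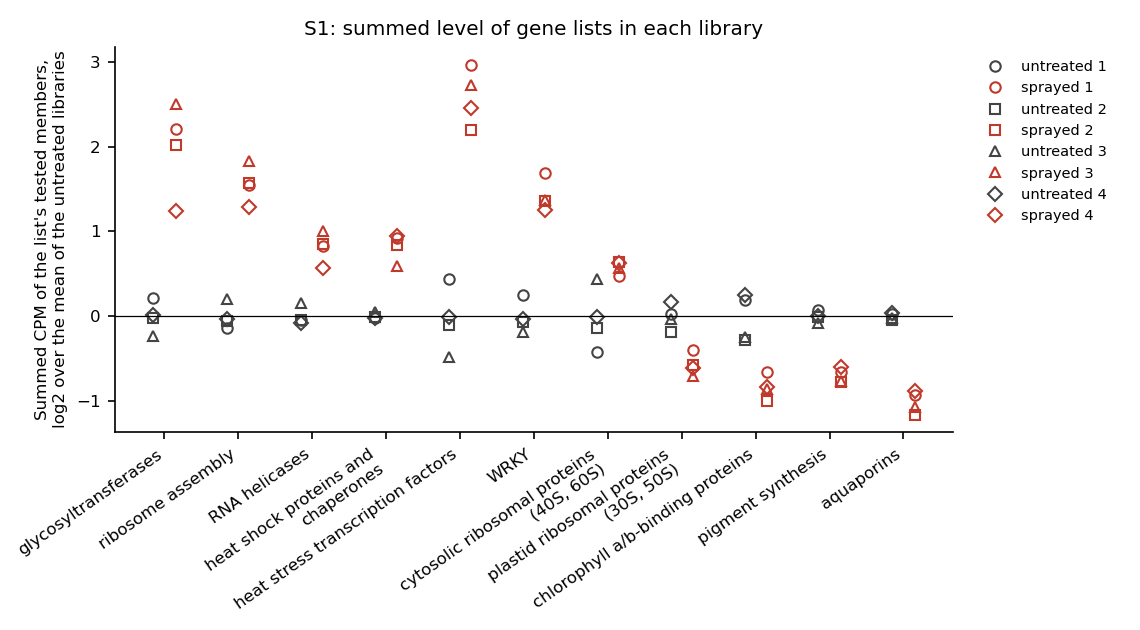
Summed CPM of the tested members of 11 gene lists in each S1 library, as log2 over the mean of the 4 untreated libraries (vertical), with untreated libraries in grey, sprayed in red and 1 symbol per replicate number. Sprayed replicate 4 (diamonds) is lowest of the sprayed libraries for glycosyltransferases (188 CPM) and ribosome assembly but highest for heat shock proteins and chaperones (1521 CPM).

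The responses of the other populations were smaller in number. In the same fit, 1804 features were called in S2 (7.21%), with 4.60% higher and 2.60% lower. In R1 there were 1425 (5.69%, with 3.84% higher and 1.85% lower) and in R2 411 (1.64%, with 1.28% higher and 0.359% lower). Features called in the same direction in S1 and S2 numbered 1468, which is 29.4% of the S1 calls and 81.4% of the S2 calls. With R1 there were 1032 (20.6% of the S1 and 72.4% of the R1 calls) and 5 in opposite directions, and with R2 there were 372 (7.44% and 90.5%). Calls in all 4 populations in the same direction numbered 261. S1 alone held 3125 calls, but for only 220 of these was the difference between the S1 response and the mean of the other 3 responses itself called. The median log2 change of the features that rose in S1 was 0.69 in S2, 0.58 in R1 and 0.40 in R2, and of those that fell -0.34, -0.18 and -0.20.

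Tested directly against S2, the other susceptible population, the S1 response was higher in 7 features (0.0280%) and lower in none by edgeR's quasi-likelihood test, although 2052 features had an unadjusted p under 0.05. DESeq2 called 106 and limma voom 3, and without sprayed S1 replicate 4 the count was 39. The named ones are sulfite exporter TauE/SafE family protein 4 and the 3-isopropylmalate dehydratase large subunit. The former (TRINITY_DN3389_c0_g1_i17.p1) read 2.52, 2.399, 2.01 and 1.87 CPM untreated and 8.83, 9.92, 12.4 and 7.503 CPM sprayed in S1, while its log2 change was 0.29 in S2, 1.32 in R1 and 0.42 in R2. The S1 change exceeded that of S2 by 1.84 ± 0.24 on the log2 scale (adjusted p = 0.000779). For the dehydratase (TRINITY_DN311_c0_g1_i24.p1) the excess over S2 was 1.58 ± 0.28 (adjusted p = 0.0224), and a second reading frame on the same contig was also among the 7. Its estimate stayed between 1.40 and 1.77 when single libraries were left out, but the call was lost without untreated S1 replicate 1, 2 or 4, sprayed S1 replicate 2 or 3, untreated S2 replicate 1, 3 or 4, or sprayed S2 replicate 1 or 3 (adjusted p = 0.0532 to 0.101), and also with limma voom (0.072) and with the S1 and S2 libraries alone (0.147). The TauE/SafE call was lost with the S1 and S2 libraries alone (adjusted p = 0.128). Sprayed S2 libraries read 51.1 to 78.4 CPM of the dehydratase, R1 111 to 178 and R2 47.5 to 73.8.

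Against the mean response of S2, R1 and R2, 399 features differed (1.59%), with the S1 response higher in 168 (0.671%) and lower in 231 (0.923%). Nearly all lay in features called in S1: 167 of the 168 rose in S1 and 229 of the 231 fell. As the choice of these features fixes, the 168 had a median log2 change of 1.98 in S1, against 0.70 for S2, 0.85 for R1 and 0.36 for R2, and that of the 231 was -0.79, -0.30, -0.03 and -0.12. The size of this set depended on single libraries, with 85 calls without untreated replicate 4, 86 without sprayed replicate 2, 140 without sprayed replicate 3, 151 without untreated replicate 1 and 234 without sprayed replicate 1. With library totals alone 1584 were higher and 34 lower.

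**Figure D5:**
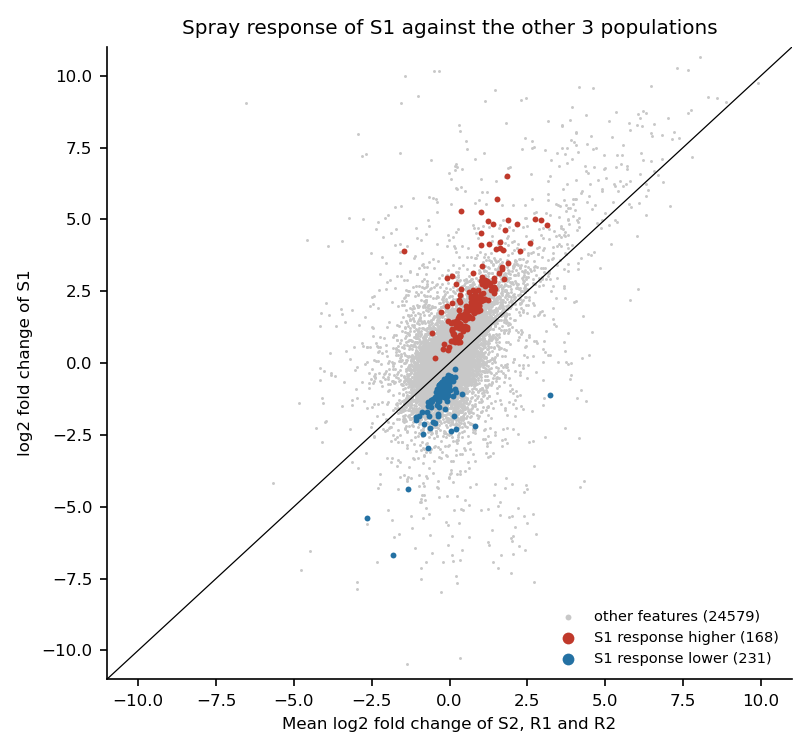
Log2 fold change on spraying in S1 (vertical) against the mean of the log2 fold changes in S2, R1 and R2 (horizontal) for each tested feature with an S1 count, with a line of equal response. The 168 features with a higher S1 response (red) lie above the line, mostly at positive values on both axes, and the 231 with a lower one (blue) lie below it.

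Members of the translation lists were among the features with a higher S1 response, with 12 of 66 translation factors and tRNA ligases, 6 of 30 RNA helicases and 4 of 45 ribosome assembly features. Of the same 66, 2 had a lower S1 response, and of 85 ribosomal proteins 1 was higher and 4 lower. The number of higher responses depended on single libraries. Over all tested features it was 27 without untreated replicate 4, 45 without sprayed replicate 2 and 48 without sprayed replicate 3. The shares over all described features were 2.12% higher and 2.85% lower, and the helicase and assembly lists were added after the values had been seen. The S1 response of NMD3 exceeded the mean of the other populations by 0.85 ± 0.15 on the log2 scale (adjusted p = 0.00819), with changes of 0.65 in S2, 1.27 in R1 and 0.25 in R2. The organelle arginine--tRNA ligase exceeded that mean by 1.44 ± 0.25 (adjusted p = 0.00759), ClpD1 by 2.36 ± 0.39 (adjusted p = 0.00344) and the TauE/SafE protein by 1.46 ± 0.20 (adjusted p = 0.000588). The UV-B-induced protein At3g17800 (TRINITY_DN24_c0_g1_i5.p1), named for a plastid protein of Arabidopsis, rose from 8.85, 9.595, 9.87 and 7.66 CPM to 20.2, 24.96, 21.8 and 19.1 CPM in S1 and changed by 0.42, -0.01 and 0.20 in S2, R1 and R2, an excess of 1.06 ± 0.14 (adjusted p = 0.000588). Against S2 alone, the edgeR test called no difference for NMD3, the arginine--tRNA ligase, ClpD1 or the UV-B-induced protein (adjusted p = 0.082 each). Of the 391 features that name the chloroplast, another list added after the values had been seen, 43 had a lower S1 response, against 219 of the 7697 described features. This count depends on scaling and on single libraries. Over all tested features, 34 had a lower S1 response with library totals alone, 41 without sprayed replicate 2 and 58 without untreated replicate 4. Among the 43, the ribonuclease E/G-like protein differed by -0.86 ± 0.13 (adjusted p = 0.00229) and chlorophyll a-b binding protein 1 (TRINITY_DN2588_c0_g1_i1.p1) by -1.25 ± 0.23 (adjusted p = 0.00952). That antenna protein read 99.5, 95.5, 139.8 and 157 CPM untreated and 61.9, 41.4, 58.6 and 58.3 CPM sprayed in S1. Sugar transporter ERD6-like 16 (TRINITY_DN405_c0_g1_i96.p1) fell from 15.2, 14.2, 12.9 and 12.4 CPM to 6.65, 6.87, 7.39 and 7.04 CPM in S1 and differed from the mean of the others by -0.75 ± 0.12 (adjusted p = 0.00239). With library totals alone the calls of the ribonuclease and of ERD6-like 16 were lost, at -0.50 and -0.40 (adjusted p = 0.0607 and 0.0574).

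In several lists no difference between populations was called. None of the 9 heat stress factors, 9 aquaporins, 16 glutathione S-transferases or 19 WRKY factors was called for a difference from the mean of the other populations. At the shares over described features given above, less than 1 call falls to a list of such a size. Of the heat shock proteins and chaperones, 3 of 66 were higher and 1 lower. A missed threshold does not show that the responses are equal. The dnaJ homolog changed by 2.97 in S1, against 3.18 for S2, 2.81 for R1 and 2.89 for R2 on the log2 scale, and the HSP90 chaperone by 2.94, 3.00, 2.02 and 2.34. Tonoplast intrinsic protein 1-1 changed by -1.26, -1.22, -0.88 and -0.85.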

How the data were processed

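The series measured leaf RNA in 32 libraries, 4 in each of 8 groups, and each library pooled 3 plants. The labels do not say whether the pools of a group were grown separately, so p-values measure the spread between these pools. Libraries were prepared with a stranded total RNA kit after ribosomal RNA depletion, per the labels' protocols. Tools named in the submitters' processing notes are STAR 2.5.2b and FastQC 0.11.5, along with R 3.6.1 and DESeq2 1.24.0; the counting tool and its strand setting are not given in the sources used here, so reads of a feature and of an antisense partner cannot be told apart. The authors deposited raw counts for 39590 features, per the file headers, and a table with descriptions and their own log2 fold changes and p-values; from that deposited table only the descriptions were used, and its log2 and p-value columns were not. Of the features, 3818 had no count in any library.

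Counts were analysed with edgeR 4.0.16 in R 4.3.3: filterByExpr by group, TMM factors, 1 model of 8 group means over the 32 libraries with 24 residual degrees of freedom, and the robust quasi-likelihood F test. The p-values were adjusted with the Benjamini-Hochberg method over 25036 tested features, and a feature was called below 0.05. Standard errors are the log2 fold change divided by the square root of F. Levels are CPM on TMM-scaled totals. A count of 0 over a group was set to 3 counts to give a bound, and intervals on ratios of few counts cover counting error at 95% only. All lists kept their median, as printed, when such members were set to their bound. The difference between responses was tested as a contrast in the same fit. The script was tested on simulated data.

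The members and the 59 gene lists were chosen with earlier results of these data known, and 8 of the lists were added after the values here had been seen. Named features are those with the smallest p or the largest change among all features, within each list and within each difference, with every acetyl-CoA carboxylase and the features with counts in 1 group only. Those with the smallest p among all features also had to change by at least 1 on the log2 scale, with no overlap between sprayed and untreated S1 libraries. Alternatives were RLE size factors, library totals, TMM without the 10 most abundant features, other filters, DESeq2 1.42.0, limma 3.58.1 with voom, a fit on the contrast's libraries alone, a replicate block and leaving out each library. No genome or sequence of the contigs was used here.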

Additional observations from a re-analysis of the deposited data

Results flagged for a closer look

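In 9 of 158 groups of 4 libraries checked, 1 library stood far from its 3 group mates, where chance alone gives about 1 in 20. Among untreated libraries, replicate 2 read 64.0 CPM of the organelle alanine--tRNA ligase (TRINITY_DN2016_c0_g1_i5.p1) against 68.1 to 68.6 CPM in the others. Replicate 4 read 109.8 CPM of the branched-chain aminotransferase-like protein (TRINITY_DN2401_c0_g1_i2.p1) against 83.5 to 87.3 CPM. Replicate 3 read 13.1 CPM of cytochrome P450 76C1 (TRINITY_DN3630_c0_g1_i3.p1) against 15.8 to 16.2 CPM, and replicate 1 read 5.72 CPM of a WRKY protein (TRINITY_DN72249_c0_g1_i1.p1) against 3.02 to 3.47 CPM.

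Among sprayed libraries, replicate 1 read 42.7 CPM of the clock component PRR95 (TRINITY_DN1306_c0_g1_i3.p1) against 12.6 to 16.1 CPM in the others. Replicate 3 read 34.7 CPM of protein TSS-like (TRINITY_DN237_c0_g1_i48.p2) against 42.5 to 43.8 CPM and 86.3 CPM of Curvature thylakoid 1B (TRINITY_DN37280_c0_g1_i10.p2) against 72.6 to 73.4 CPM. Replicate 4 read 110.7 CPM of the dnaJ homolog (TRINITY_DN2682_c0_g1_i4.p1) against 72.3 to 75.7 CPM, and 0.356 CPM of DETOXIFICATION 16-like (TRINITY_DN5054_c0_g1_i35.p1) against 5.93 to 6.83 CPM.

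The S1 response differed from the mean of the other responses, by the test of the difference in edgeR, in these named features on the log2 scale. It was higher by 2.36 for ClpD1, 0.85 for NMD3, 1.06 for the UV-B-induced protein, 1.27 for 3-isopropylmalate dehydratase, 1.46 for the TauE/SafE protein and 1.44 for the organelle arginine--tRNA ligase. It differed by -0.51 for the plastid elongation factor Tu, -1.25 for chlorophyll a-b binding protein 1, -0.86 for the ribonuclease E/G-like protein, -0.75 for ERD6-like 16 and -0.80 for protein TSS; with library totals alone the calls of the factor Tu (-0.16), the ribonuclease (-0.50), ERD6-like 16 (-0.40) and TSS (-0.43) were lost. Against S2 alone it was higher by 1.58 for the dehydratase and 1.84 for the TauE/SafE protein.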

How the results depend on the processing

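The number of features called in S1 stayed within 1.5 times of 5000 under all 17 alternatives, from 4111 to 7370, and from 4111 to 4833 when single libraries were left out. The set itself depended on scaling. Of the 5000 features, 3203 were also called, in either direction, with library totals alone, against 4717 with limma voom and 4992 with DESeq2. Of 87 named called features, 75 kept their call under every alternative and 9 lost it with library totals alone. With that scaling the log2 change of 6 features turned sign, to 0.0103 for helicase 25-like, 0.0704 for TIAR, 0.0680 for D1, 0.0269 for CP43, and 0.17 and 0.19 for the acetyl-CoA carboxylases. The cause was not tested. The difference from S2, 7 features, became 106 with DESeq2, 20 with library totals, 3 with limma voom and 0 with the S1 and S2 libraries alone, and 2 to 39 when single libraries were left out. The difference from the mean of the others, 399 features, became 837 with DESeq2, 1618 with library totals and 85 to 424 without single libraries. The replicate numbers did not pair the samples (correlations of same-numbered deviations 0.09, -0.04, -0.03 and -0.02); with a replicate block 4876 features were called in S1, 4743 of them also without it, 4 in the difference from S2 and 312 in that from the mean of the others, and the calls of the dirigent protein (adjusted p = 0.0615) and of the dehydratase against S2 (0.0827) were lost.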

Other observations

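Smaller lists that entered no comparison above were also counted in S1. Of 5 aldo-keto and quinone reductases, which detoxify reactive carbonyls, 3 rose and none fell. Of 4 ethylene synthesis features 1 rose, and of 5 gibberellin, cytokinin and brassinosteroid features, 5 cuticle and wax features and 5 senescence and cell death features 1 rose in each, with no fall. Of 18 features described as foreign RNA or transposons 6 fell and none rose, and their summed level was 102 to 141 CPM in untreated and 65.3 to 84.5 CPM in sprayed libraries; with library totals alone none was called. Of 5 features of reproductive tissue and seed 1 rose and 2 fell, or 3 and none with library totals alone. Among 17339 tested features without a description, 230 rose and 294 fell, but with library totals alone 3277 rose and 25 fell.

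Of 30 tested features of dividing tissue (histones, cyclins, tubulins and DNA replication) 3 rose and 1 fell, and without sprayed replicate 3 the rises were 5. The whole list summed to 397.2 to 490.6 CPM in untreated libraries and to 382.5, 437, 383.4 and 416.4 CPM in the sprayed ones. Over the list, sprayed replicate 2 and not replicate 4 was thus the highest sprayed library. DNA replication licensing factors, which load onto DNA before it is copied, were singled out after their values had been seen. MCM2 (TRINITY_DN14153_c0_g1_i7.p1) read 0.103, 0.469, 0.0486 and 3.42 CPM in the sprayed libraries, MCM4 (TRINITY_DN87922_c0_g1_i2.p1) read 0.154, 1.17, 0.195 and 4.76 CPM and MCM6 (TRINITY_DN30337_c0_g1_i4.p1) read 0.0514, 0.3904, 0.0486 and 1.75 CPM. All 3 were highest in sprayed replicate 4, the library that lay nearest to the untreated plants on the first component, and none passed the threshold (adjusted p = 0.069, 0.0622 and 0.0617). One or more untreated R1 libraries read up to 18.7, 22.4 and 11.99 CPM of the same features. The part of this in the smaller response of replicate 4 was not tested.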
